A study of Rattus norvegicus with 20 samples.

Results

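The 20 arrays of rat blood cells included 4 on which some heat shock genes, Hspb1 and Hsph1 among them, stood far above their level on all the others. Of the 50 listed heat shock genes measured, 12 were higher on these arrays by the rule given below. The 4 arrays were LEW_STD replicates 2 and 3, WKY_STD replicate 1 and LEW_CAF replicate 2, and they were chosen from the measured values, as the arrays with the highest levels of heat shock genes such as Hspb1 and Hsph1. The other 16 arrays formed the comparison side, with 3 in LEW_STD, 4 in WKY_STD, 4 in LEW_CAF and 5 in WKY_CAF. No array of WKY_CAF was among the 4, so the contrast rested on the other groups. The study compared 2 inbred strains of male rats, LEW (LEW/Crl) and the strain WKY (WKY/NCrl), on a standard chow (STD) or on an energy-dense cafeteria diet (CAF) for 7 weeks, with 5 arrays per group. The rats were 15 weeks old and were fasted for 9 h before blood was drawn under anaesthesia. The cells came from a density gradient, and the labels call them PBMC while the methods describe monocytes that attached to plastic, so that they are called blood cells here. Total RNA was measured on single-colour Rat Gene arrays, and a level is the deposited log2 signal of a transcript (a probe set), so that a difference of 1 is a doubling.

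The heat shock response is the programme by which cells meet unfolded protein after heat, toxic metals, oxidants or other damage. Heat shock factor 1 (HSF1) is held inactive by chaperones and, once they are drawn off by unfolded protein, forms trimers that bind heat shock elements, arrays of inverted GAA units, near the genes of Hsp70, Hsp90, Hsp40 and small heat shock proteins. The response is well described in monocytes and lymphocytes exposed to heat.

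Both marker genes placed the same 4 arrays on top. Hsph1 encodes Hsp110, which exchanges the nucleotide of Hsp70. Its level was 12.19 in LEW_STD replicate 2, 11.29 in LEW_STD replicate 3, 11.20 in WKY_STD replicate 1 and 11.73 in LEW_CAF replicate 2, while the other 16 arrays ran from 8.99 to 9.45 with a median of 9.19. Hspb1 encodes Hsp27, a small heat shock protein that holds unfolded clients. It measured 9.43, 8.28, 7.60 and 9.41 in the same order, against 5.44 to 6.09 with a median of 5.65. The groups did not overlap for either gene, and the gap between the lowest of the 4 and the highest of the 16 was wide. These values chose the arrays, so that they and all other differences between the 4 arrays and the 16 are given as a description, with no test.

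By array medians and correlations the 4 arrays lay within the range of the series. Array medians lay between 6.83 and 6.90, and the mean correlation of an array with the others of its group ran from 0.9935 to 0.997 over the series and from 0.9938 to 0.9953 for the 4. On the second principal component of the values with the group means taken out (12.55% of that variance), the 4 arrays scored 7.46 to 14.80 and the other 16 from -23.18 to 5.59, with no overlap. Transcripts of monocytes, T cells and B cells were all present, with mean levels of the monocyte list of 10.56 to 10.86 on the 4 arrays and 10.12 to 10.90 on the others, and of the T cell list of 11.10 to 11.26 and 10.95 to 11.39. In such mixed RNA, more cells of a type and more RNA per cell cannot be told apart.

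The start regions of the heat shock genes are shown first, since heat shock elements are the letters that HSF1 is known to bind. RefSeq start windows of 300 bases (250 before and 50 after the transcription start, build GRCr8) were searched for a pair of inverted units, GAANNTTC or TTCNNGAA, each of which reads the same on both strands, and for a triple, GAANNTTCNNGAA or its reverse complement TTCNNGAANNTTC, which contains pairs. The pair was found in 15.4% of the 27457 windows and the triple in 0.736%. Of the 12 listed heat shock genes that were higher on the 4 arrays by the rule given below, 11 had a window, and 11 of the 11 held a pair and 4 a triple. Of the 29 listed heat shock genes with a window that were not past the rule, 9 (31%) held a pair and 3 a triple. Of 37 other genes past the rule 27 had a window, and 8 of these (29.6%) held a pair and 1 a triple. Jun, Fos, Hmox1, Plat and Fcer2 were among those without a window and were not searched. A match is a description of letters and not a measured binding site, and a window without one says only that these letters are not in it. The stretches printed below are Hspb1 (chr12:26432378-26432455, minus strand), Hsph1 (chr12:10427238-10427369, plus strand), Hspa2 (chr6:100864353-100864410, plus strand), Bag3 (chr1:192533303-192533360, plus strand), Fkbp4 (chr4:163398023-163398080, minus strand) and Hspe1 (chr9:64084237-64084304, plus strand). They read from 5′ to 3′ along the gene's strand, and capitals mark the matched pairs and triples.
Hspb1: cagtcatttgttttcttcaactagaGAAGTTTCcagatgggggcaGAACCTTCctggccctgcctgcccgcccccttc
Hsph1: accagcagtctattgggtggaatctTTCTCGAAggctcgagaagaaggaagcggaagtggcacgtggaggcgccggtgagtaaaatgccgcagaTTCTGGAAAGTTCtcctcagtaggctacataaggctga
Hspa2: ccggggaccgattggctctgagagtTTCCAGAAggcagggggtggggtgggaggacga
Bag3: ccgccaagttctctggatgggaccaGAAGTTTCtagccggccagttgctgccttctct
Fkbp4: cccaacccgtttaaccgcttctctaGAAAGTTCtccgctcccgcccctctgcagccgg
Hspe1: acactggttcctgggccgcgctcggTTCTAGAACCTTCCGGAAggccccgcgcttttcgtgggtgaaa
The Hspb1 stretch holds 2 separate pairs, the first at position -129 from the start, and the Hsph1 stretch has a pair at -105 and a triple further down. Bag3 and Fkbp4 have 1 pair each, at -132 and -137, and Hspa2 has 1 at -64. In Hspe1 the capitals form a run of 4 alternating units from -65, which makes 2 overlapping triples. Hspd1 is read from the opposite strand of the same stretch, its window (chr9:64083988-64084287, minus strand) overlaps that of Hspe1, and both windows share this run. The counts of pairs and triples above thus hold the same letters once for each of these genes. The pair lay close to the start in Cacybp (-12), Stip1 (-8) and Dnajb1 (-11 and 17).

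The cytosolic Hsp70 machine showed the widest gap. Its probe set for the inducible members is annotated for several Hsp70 genes together, so that no single gene can be named from it. It measured 13.36 in LEW_STD replicate 2, 12.68 in LEW_STD replicate 3, 12.60 in WKY_STD replicate 1 and 12.98 in LEW_CAF replicate 2. The other 16 arrays lay between 8.32 and 10.61 with a median of 8.65, and the group-adjusted difference, that is the difference between the 4 arrays and the others after the mean of each strain and diet group was taken out, was 4.21 (18.6-fold). Next came Hspb1 with 3.01 (8.03-fold) and Hsph1 with 2.37 (5.18-fold). Hspa2, an Hsp70 known best from the testis, measured 8.13, 7.50, 8.40 and 7.53 in that order of arrays, against 6.87 to 7.98 elsewhere. Its range on the others spans both strains, and within each group the 4 arrays were above the rest (difference 0.79, 1.73-fold).

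**Figure D1:**
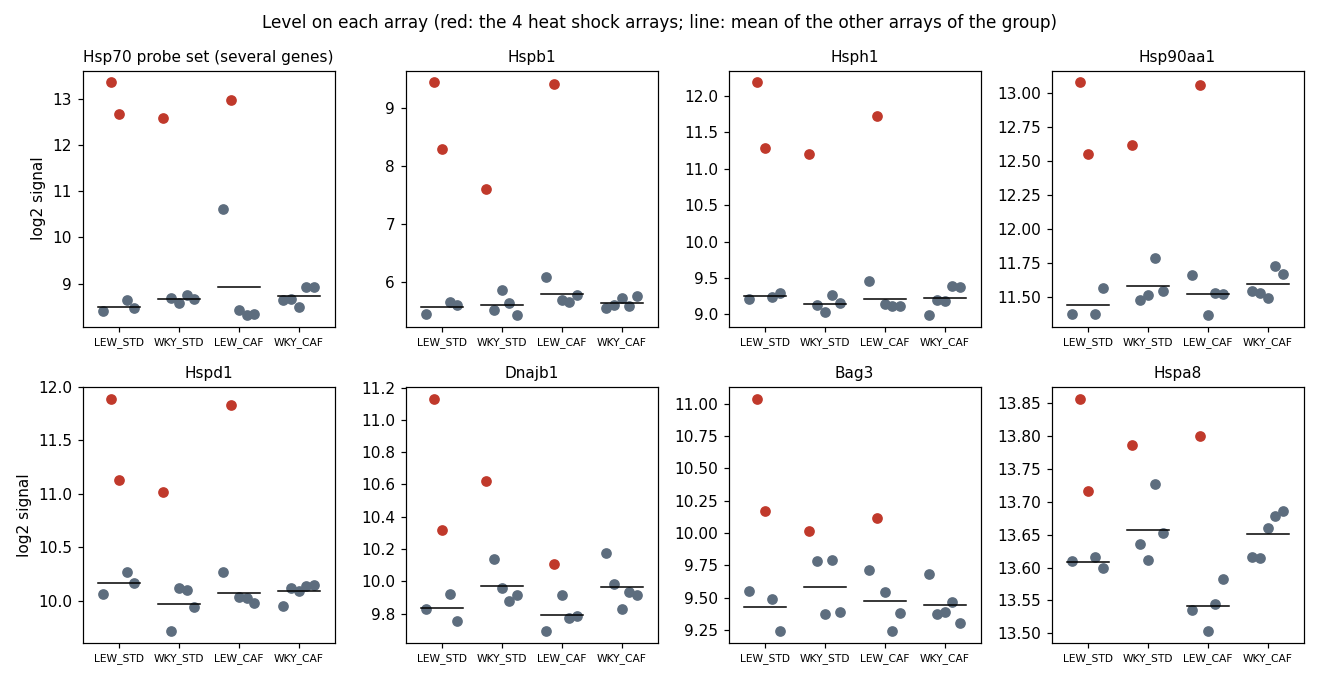
Level (log2 signal) of the Hsp70 probe set and 7 chaperone genes on each of 20 arrays by group, with the 4 heat shock arrays in red and the mean of the other arrays of a group as a line. The red points stand above the grey points of their own group in each panel. The group-adjusted difference was 4.21 for the Hsp70 probe set and far less for Hspa8, and LEW_CAF replicate 1 is the grey point at 10.61 in the first panel.

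Constitutive Hsp70 genes differed far less. Hspa8 encodes Hsc70, the abundant Hsp70 of unstressed cells. Its probe set of the highest signal measured 13.86, 13.72, 13.79 and 13.80 on the 4 arrays and 13.50 to 13.73 on the others, a difference of 0.19, and its other probe sets gave 0.19 to 0.32. Hspa4, a relative of Hsp110, had a difference of 0.32, from 11.55 to 11.77 on the 4 arrays and 11.17 to 11.53 on the others. Both genes lay above all other arrays of the own group on each of the 4, at a size below 1.5-fold.

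Hsp40 proteins bring clients to Hsp70. Dnaja1, a farnesylated Hsp40 of the cytosol, measured 12.65, 12.13, 12.28 and 12.37, against 11.52 to 11.86 with a median of 11.69, which gave a difference of 0.71 (1.64-fold). Dnajb1, which encodes Hsp40 itself, measured 11.13, 10.32, 10.62 and 10.11, against 9.69 to 10.17 with a median of 9.91 (difference 0.66, 1.58-fold). For Dnaja1 the sides did not overlap, whereas for Dnajb1 the value of LEW_CAF replicate 2 was within the range of the 16 and above those of its own group. Of the 8 Hsp40 genes measured, 2 were past the rule, and Dnajb4, at 0.39, came next.

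Hsp90 and the proteins that work with it held the most members. Hsp90aa1, the inducible cytosolic Hsp90, measured 13.08 in LEW_STD replicate 2, 12.55 in LEW_STD replicate 3, 12.62 in WKY_STD replicate 1 and 13.06 in LEW_CAF replicate 2, and 11.37 to 11.79 with a median of 11.53 on the others (difference 1.33, 2.51-fold). The 4 arrays fell in a high pair and a lower pair, both clear of the rest. Cacybp, which links a ubiquitin ligase to its clients and has an Hsp90 binding domain, measured 11.74, 11.20, 11.39 and 11.45, against 10.26 to 10.87 (difference 0.96, 1.94-fold). Fkbp4, an immunophilin of steroid receptor complexes, measured 10.01, 9.21, 9.32 and 9.36, against 8.26 to 8.73 (difference 0.89, 1.86-fold). For both genes the 4 arrays stood above all 16 others. Bag3, which releases clients from Hsp70 and sends them to autophagy, measured 11.04, 10.17, 10.01 and 10.12, against 9.24 to 9.79 (difference 0.81, 1.75-fold). Stip1, which bridges Hsp70 and Hsp90, measured 11.23, 10.67, 10.66 and 11.21, against 9.90 to 10.60 (difference 0.70, 1.63-fold). In all, 5 of the 15 measured genes of this list were past the rule, 7 lay above their own group's others on each of the 4 arrays, and the list median was 0.38.

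In the mitochondrion, the chaperonin genes Hspd1 (Hsp60) and Hspe1 (Hsp10), which face each other across the shared start region, were the members past the rule among 7 measured. Hspd1 measured 11.89, 11.13, 11.01 and 11.84, against 9.71 to 10.27 with a median of 10.09 (difference 1.38, 2.60-fold), and a second probe set gave 1.26. Hspe1 measured 11.25, 10.59, 10.49 and 10.94, against 9.60 to 9.998 with a median of 9.83 (difference 1.02, 2.03-fold). Neither gene had an overlap between the sides. Clpb, a mitochondrial disaggregase, had a difference of -0.17, and the median of the list was 0.03.

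The regulators themselves were not past the rule. Hsf1 had a difference of -0.16, with 9.13 to 9.32 on the 4 arrays and 8.96 to 9.58 on the others, and Hsf2 one of 0.25, with 9.08 to 9.32 and 8.75 to 9.11. Sqstm1, an autophagy receptor for ubiquitinated protein, had 0.21. Among the small heat shock proteins, 1 of 7 was past the rule, and Hspb6, Cryab and Hspb8 lay between -0.08 and -0.04. Cryab, Hspb8 and Hspb7 stayed under 6 on every array, below the array medians of 6.83 to 6.90, where a change can be hidden. They remain in the counts and the median that follow. Over the 6 heat shock lists, 50 of 58 genes were measured, 12 were higher past the rule and 0 lower, and 38 were not past it, of which 7 lay above their own group's others on each of the 4 arrays. The median over the 50 was 0.05, beside -0.02 over all transcripts.

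Over all 28826 transcripts, a transcript counted as higher when its difference was at least 1.5-fold and each of the 4 arrays lay above every other array of its own group. This held for 76 transcripts (0.264%), and the mirror rule held for 1 (0.00347%), which has no gene name here and had a difference of -0.71. At any size, 472 transcripts (1.64%) lay above on all 4 arrays and 244 (0.846%) below. The list of 76 is short and nearly all on the higher side. Of the 76, 51 carried 1 gene symbol and stood for 49 genes. The members just inside the threshold were Nr1d1 (0.60), Dll1 (0.60) and a probe set of Mt2A (0.59), and the first outside was Dusp4 (0.58). Without WKY_STD replicate 1, the count of higher transcripts was 125 and that of lower ones 17.

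**Figure D2:**
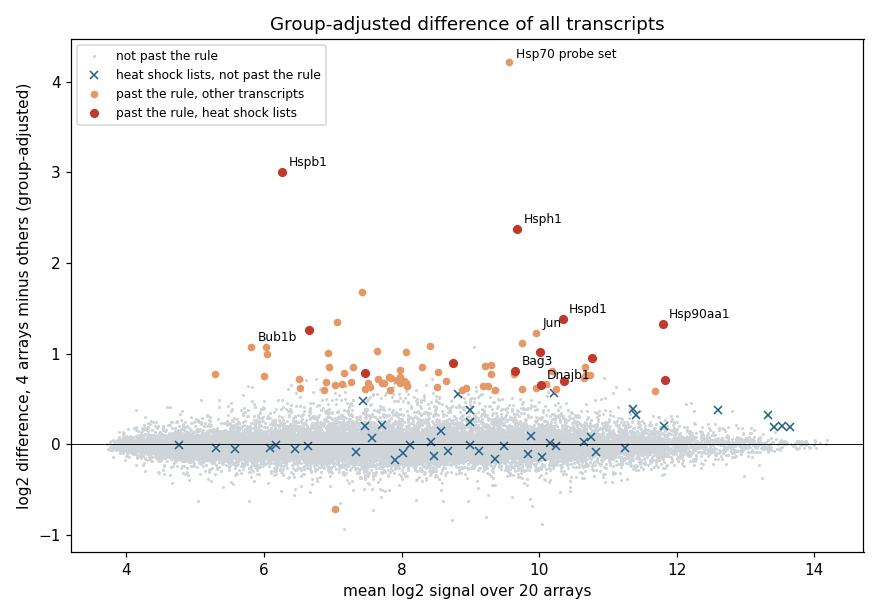
Group-adjusted log2 difference between the 4 heat shock arrays and the other 16 against the mean log2 signal of each of 28826 transcripts, with transcripts past the rule in red (heat shock lists) or orange (others). The Hsp70 probe set at 4.21, Hspb1 at 3.01 and Hsph1 at 2.37 lie far above the bulk of the transcripts, and 1 transcript is past the rule on the lower side.

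Transcripts outside the chaperone lists were part of the same set. Jun, a subunit of the AP-1 transcription factor, measured 11.35, 10.64, 11.06 and 10.61, against 9.30 to 10.25 (difference 1.23, 2.35-fold), and Fos, its partner, 10.27, 9.57, 9.996 and 9.89, against 8.55 to 9.61 (difference 0.88, 1.84-fold). Jun did not overlap between the sides, while Fos in LEW_STD replicate 3 was below the highest of the 16. Zfand2a, an arsenite-inducible partner of the proteasome, measured 11.05, 10.17, 10.31 and 10.68, against 8.93 to 10.14 (difference 1.11, 2.16-fold). Its deviation was 1.92 in LEW_STD replicate 2 and 0.21 in WKY_STD replicate 1. Slc5a3, an osmolyte transporter for myo-inositol, had a difference of 1.08 (2.12-fold), Gfpt2, an enzyme of hexosamine synthesis, 1.02 (2.03-fold), and Plat, the tissue plasminogen activator, 1.03 (2.04-fold). Bub1b, a kinase of the spindle checkpoint, measured 7.37, 6.32, 7.00 and 6.10, against 5.47 to 5.88, with no overlap (difference 1.08, 2.11-fold). Mns1, a gene of cilia and meiosis, had 0.99 (1.99-fold), and Clec2d2l1, a lectin-like gene of the family that NK receptors bind, 1.35 (2.55-fold). The list of other cell cycle genes, by contrast, had 0 of 14 past the rule and a median of -0.02.

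Among genes singled out after their values were seen, Hes1, a target of Notch signalling, had a difference of 0.86 and the Notch ligand Dll1 one of 0.60. Adm, the vasodilator peptide adrenomedullin, had 0.79, and Ggct, an enzyme of glutathione turnover, 0.82. Bub1b was joined by Fam83d (0.74) and Cep57 (0.65), which both serve the mitotic spindle. In both Fam83d and Bub1b, WKY_STD replicate 1 deviated more from its group than LEW_CAF replicate 2 did.

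Neighbouring stress programmes were present to a small extent. In the list of Nrf2 and metal response, 2 of 14 genes were past the rule, Hmox1 (0.62), the haem oxygenase, and the metallothionein Mt2A (0.59 and 0.77 by its 2 probe sets), and the list median was 0.21. Hmox1 measured 10.09, 9.34, 9.24 and 9.37, against 8.27 to 9.16. All 4 arrays were above the others, and LEW_STD replicate 2 was well above the remaining 3. The proteasome list had 0 of 33 past the rule (median -0.05, range -0.15 to 0.08), the CCT chaperonin 0 of 8 (median 0.11) and the ER chaperones and unfolded protein response 0 of 17 (median 0.12, with Herpud1 at 0.29 and Xbp1 at 0.28). The integrated stress response had 0 of 10, with Atf3 at 0.64, and the p53 targets 0 of 11, with Gadd45b at 0.63. In the proteasome, CCT, ER, integrated stress response and p53 lists, differences were thus under 1.5-fold or did not hold within each group.

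Jun and Fos were the 2 of 23 immediate-early genes past the rule, and the rest of the list went both ways, from Egr2 at -0.80 to Fosl1 at 0.47, with a median of 0.22. Inflammatory mediators had 0 of 19 past the rule. Il6 had a difference of 1.08, Il10 of 0.72 and Ccl7 of -0.88, each with overlap within a group. Of 18 interferon-stimulated genes 1 was past the rule, Bst2 (tetherin, 0.63), with a median of 0.07.

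Markers of blood cell types were read beside these genes. None of 16 monocyte, 16 neutrophil, 16 T cell, 10 NK cell, 11 erythroid, 5 platelet and 9 dendritic cell genes measured was past the rule. The monocyte list deviated by 0.06, -0.06, 0.00 and -0.04 on LEW_STD replicates 2 and 3, WKY_STD replicate 1 and LEW_CAF replicate 2. Neutrophil genes deviated by 0.36, 0.26, -0.88 and 0.71, and so ran in opposite directions. The 5 platelet genes all had a negative group-adjusted difference (median -0.26). Their list deviated by -0.38, -0.37, -0.04 and -0.24. Gp5 and Gp9, 2 of the 5, lay below all others of the own group on each of the 4 arrays, beside 0.846% of all transcripts. On WKY_STD replicate 1, by contrast, Pf4 was above all others of its group. Of the 9 B cell genes measured 2 were past the rule, Fcer2 (CD23, 0.86) and Ms4a1 (CD20, 0.61). Fcer2 measured 10.07, 10.06, 9.36 and 10.65, against 7.92 to 9.99, and Ms4a1 10.22, 10.08, 10.31 and 9.88, against 9.09 to 10.18. For both genes some of the 4 values lay within the range of the 16, although each was above those of its own group. The mean of the B cell list deviated by 0.23, 0.24, 0.33 and 0.21. Its members ran from -0.19 (Jchain) to 0.86, with Cr2 at 0.46 and Cd22 at 0.40. The differences of Fcrla and Cd79b were negative as well, and 5 of the 9 genes deviated upwards on all 4 arrays. The summed level of the list was 9.92 to 10.10 on the 4 arrays and 9.52 to 10.07 on the others, as a mean of log2 values, and the part of B cells in these differences was not tested.

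**Figure D3:**
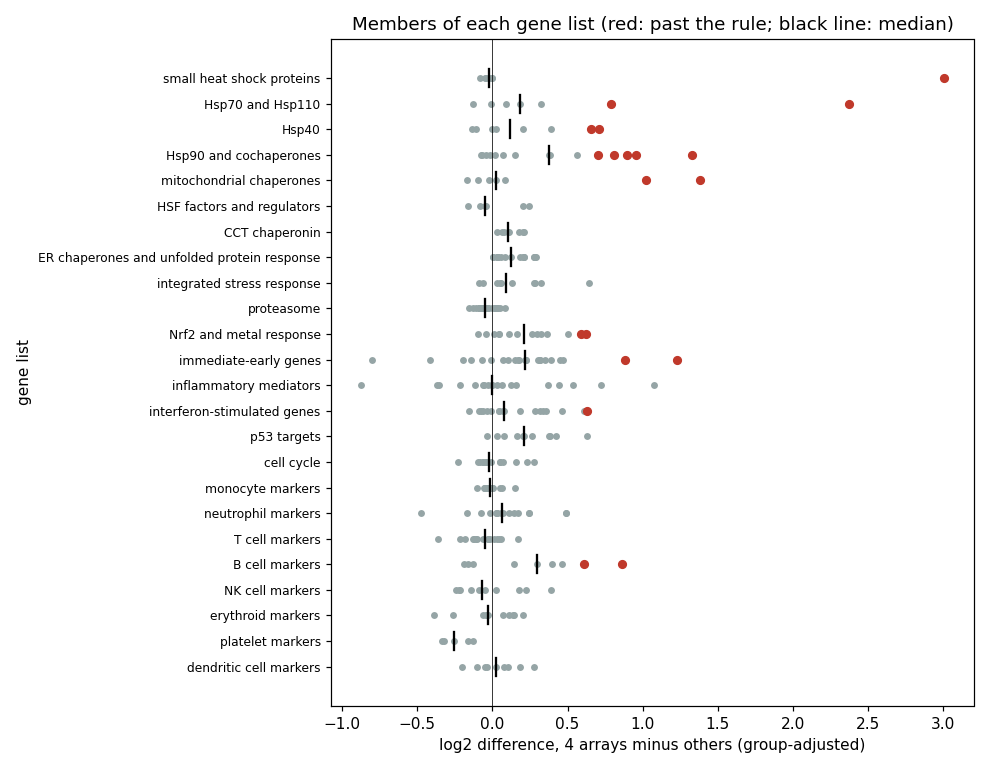
Group-adjusted log2 difference of each measured member of 24 gene lists, with members past the rule in red and the median of a list as a black line. The red points are concentrated in 5 of the 6 heat shock lists, with 2 each in the Nrf2 and metal, immediate-early and B cell lists and 1 among the interferon-stimulated genes.

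The 4 arrays differed in degree. LEW_STD replicate 2 had the largest deviation in 64 of the 76 transcripts, WKY_STD replicate 1 in 7, LEW_CAF replicate 2 in 4 and LEW_STD replicate 3 in 1. Over the 12 heat shock genes, the median deviation from the own group's other arrays was 1.42 in LEW_STD replicate 2, 0.95 in LEW_CAF replicate 2, 0.79 in WKY_STD replicate 1 and 0.78 in LEW_STD replicate 3, and it ran from -0.09 to 0.12 on the other 16. By this median LEW_STD replicate 2 was the highest, and it had the largest deviation in 11 of the 12 genes. The order of the rest of the 4 arrays varied between genes. Hspb1 deviated by 3.86 in LEW_STD replicate 2, 3.61 in LEW_CAF replicate 2, 2.71 in LEW_STD replicate 3 and 1.98 in WKY_STD replicate 1. LEW_STD replicate 2 and LEW_CAF replicate 2 were level for Hspb1 (9.43 and 9.41), Hsp90aa1 (13.08 and 13.06), Hspd1 (11.89 and 11.84) and Stip1 (11.23 and 11.21). They were apart for Dnajb1 (11.13 and 10.11), Bag3 (11.04 and 10.12) and Fkbp4 (10.01 and 9.36). With 1 array per rat, the error of a single array cannot be separated from the difference between rats.

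**Figure D4:**
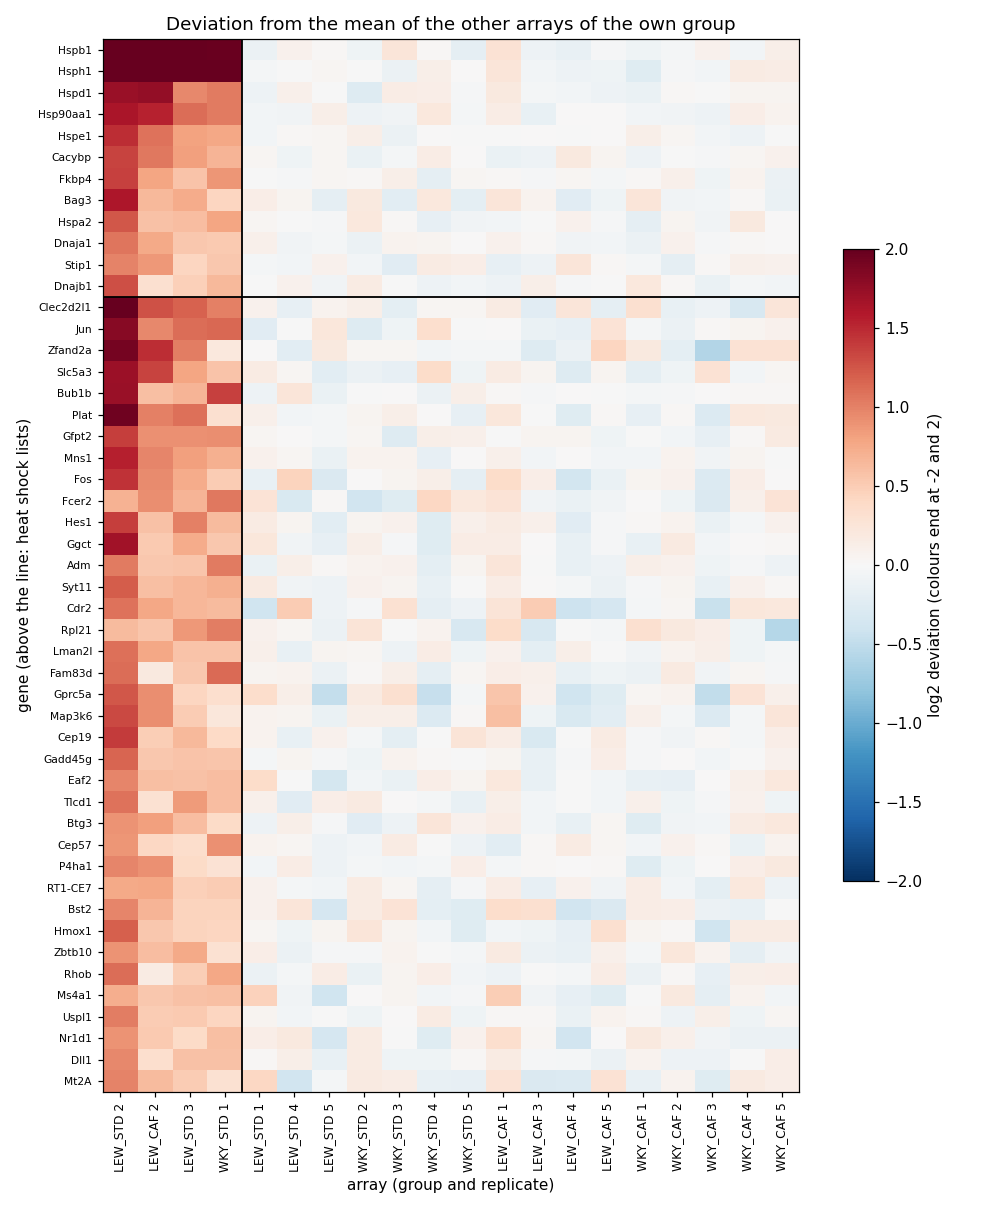
Log2 deviation of the 49 named genes past the rule from the mean of the other arrays of the own strain and diet group, on each of 20 arrays, with the 4 heat shock arrays to the left of the vertical line and heat shock genes above the horizontal line. The left columns are red throughout, darkest for LEW_STD replicate 2, while the 16 columns to the right are mostly pale.

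Over all transcripts, the 76 included, the likeness of the 4 arrays varied by group. The differences between high and other arrays, taken within each group and thus from separate arrays, had a Pearson r over 28826 transcripts of 0.12 between LEW_STD and WKY_STD, 0.49 between LEW_STD and LEW_CAF and -0.15 between WKY_STD and LEW_CAF. These are descriptions across transcripts, which are not independent. Deviations of at least 1.5-fold upwards were seen in 378, 224, 207 and 315 transcripts on LEW_STD replicates 2 and 3, WKY_STD replicate 1 and LEW_CAF replicate 2, and in 40 to 421 on the others, the highest being LEW_STD replicate 4. Within a group, an array outside the 4 was set against the mean of fewer arrays, which can raise its count. Next after LEW_STD replicate 4 came WKY_STD replicate 4 with 284, below LEW_STD replicate 2 and LEW_CAF replicate 2. The counts of the 4 arrays thus overlapped those of the others.

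An array outside the 4 held an intermediate level of the Hsp70 probe set. LEW_CAF replicate 1, singled out after its values were seen, measured 10.61, between 12.60 for the lowest of the 4 and 8.94 for the next of the 16, and lay 2.25 above the mean of LEW_CAF replicates 3, 4 and 5. It was also the fifth on Hsph1 (9.45) and on Hspb1 (6.09, which is 0.38 above those 3 arrays). Other chaperones varied, with Bag3 at 9.72 against 9.24 to 9.55 on those 3 arrays and deviations from their mean of 0.19 for Hsp90aa1, 0.26 for Hspd1, 0.00 for Hspe1 and -0.13 for Dnajb1. The array was above its 3 others in 40 of the 76 transcripts (52.6%) and in 6 of the 12 heat shock genes, and in 28% of all transcripts.

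Among the 16 arrays alone, transcripts were tested for a relation to Hsph1. The slope on the Hsph1 level, with the group as covariate, was called for 0 of the 28825 other transcripts (0%) at an adjusted p under 0.05 by limma, with 658 rising and 579 falling at an unadjusted p under 0.05 (4.29%). The smallest adjusted p was 0.436. Hsp90aa1 had a slope of 0.62 ± 0.19 (SE) log2 units per unit of Hsph1 (limma, unadjusted p = 0.00596, adjusted p = 0.9985), Hspd1 one of 0.53 ± 0.24 (unadjusted p = 0.0401) and Hspb1 one of 0.44 ± 0.29 (unadjusted p = 0.142). Dnajb1 had a negative slope of -0.46 ± 0.21 (unadjusted p = 0.0415). The Hsp70 probe set had a slope of 3.06 ± 0.78 (unadjusted p = 0.00146), which was 0.86 without LEW_CAF replicate 1, and that of Hspb1 was 0.03 without it. Of the heat shock genes listed, 4 had an unadjusted p under 0.05. Among transcripts with 1 gene symbol, those with the smallest p included Fzd4, a Wnt receptor (slope 1.43 ± 0.29, unadjusted p = 2.20e-04 by limma). Btg3, an antiproliferative gene, was another (0.99 ± 0.23, unadjusted p = 5.86e-04). Neither passed the adjustment (adjusted p = 0.9985 for Fzd4), and the smallest adjusted p of 0.436 belonged to another transcript. Hsph1 is a gene by which the 4 arrays were chosen, and the 16 span what was left of its range, so that the lack of calls says nothing of a relation over the whole range.

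The 4 arrays entered the comparisons of the study unevenly, with 3 of them among the 10 arrays of WKY against LEW on STD and 3 among the 10 of CAF against STD in LEW. With all 20 arrays, 3247 transcripts (11.3%) differed between the strains on STD at an adjusted p under 0.05 by limma, and without the 4 arrays 3024 did (10.5%), of which 2437 were shared. Of the 50 heat shock genes, 3 were called with all arrays and 8 without the 4, a count that the choice of the arrays bears on as well. Hsph1 had a log2 difference (WKY minus LEW) of -0.69 ± 0.58 (SE) with all arrays (adjusted p = 0.536 by limma) and of -0.10 ± 0.10 without the 4 (adjusted p = 0.592). Hspb1 went from -0.88 ± 0.75 to 0.04 ± 0.11 and Hspd1 from -0.53 ± 0.35 to -0.20 ± 0.09, with no call in either fit. Hspa2 had a difference (WKY minus LEW) of 0.50 ± 0.21 with all arrays (adjusted p = 0.149 by limma) and of 0.71 ± 0.09 without the 4 (adjusted p = 6.14e-05). Its other arrays measured 6.87 to 6.93 in LEW_STD and 7.44 to 7.81 in WKY_STD, and the strains did not overlap there.

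Further genes of the set are given in the same way. Zfand2a differed by 0.41 ± 0.34 between the strains with all arrays (adjusted p = 0.528 by limma) and by 0.96 ± 0.19 without the 4 (adjusted p = 0.00379). Plat differed by 0.08 ± 0.30 and by 0.63 ± 0.12 (adjusted p = 0.916 and 0.00287), Hes1 by 0.06 ± 0.23 and 0.41 ± 0.11 (adjusted p = 0.925 and 0.0217), and Cacybp by 0.02 ± 0.25 and 0.32 ± 0.08 (adjusted p = 0.980 and 0.0208). These genes were selected for being high on the 4 arrays, and leaving those out takes 2 high values from LEW_STD and 1 from WKY_STD, so that the choice itself moves the differences towards WKY and makes the SE smaller. The p-values without the 4 carry this limit, those of Hspa2 included. Fcer2 was lower in WKY in both fits, by -1.14 ± 0.25 (adjusted p = 0.00430) and -1.07 ± 0.18 (adjusted p = 0.00110). Of the 76 transcripts, 2 were called for the strain with all arrays and 20 without the 4, beside 11.3% and 10.5% of all transcripts, and the choice of the 76 bears on both counts, so that nothing is read from them. The choice also fixes the direction in which the spread moves. The median residual SD of the 12 heat shock genes was 0.429 with all arrays and 0.117 without the 4, while that of all transcripts was 0.110 and 0.108.

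Between the diets in LEW rats, 0 transcripts (0%) had an adjusted p under 0.05 by limma with all 20 arrays, and 698 were higher and 877 lower on CAF at an unadjusted p under 0.05. Without the 4 arrays there were again 0 (0%), with 470 and 725. Hsph1 had a diet difference of -0.53 ± 0.58 with all arrays and -0.04 without the 4, and Hspb1 of -0.36 ± 0.75 and 0.23 ± 0.11. Over the 76 transcripts, the median diet difference was -0.19 with all arrays and 0.06 without the 4, and the median strain difference -0.09 and 0.16. These medians describe transcripts that were selected on the 4 arrays.

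**Figure D5:**
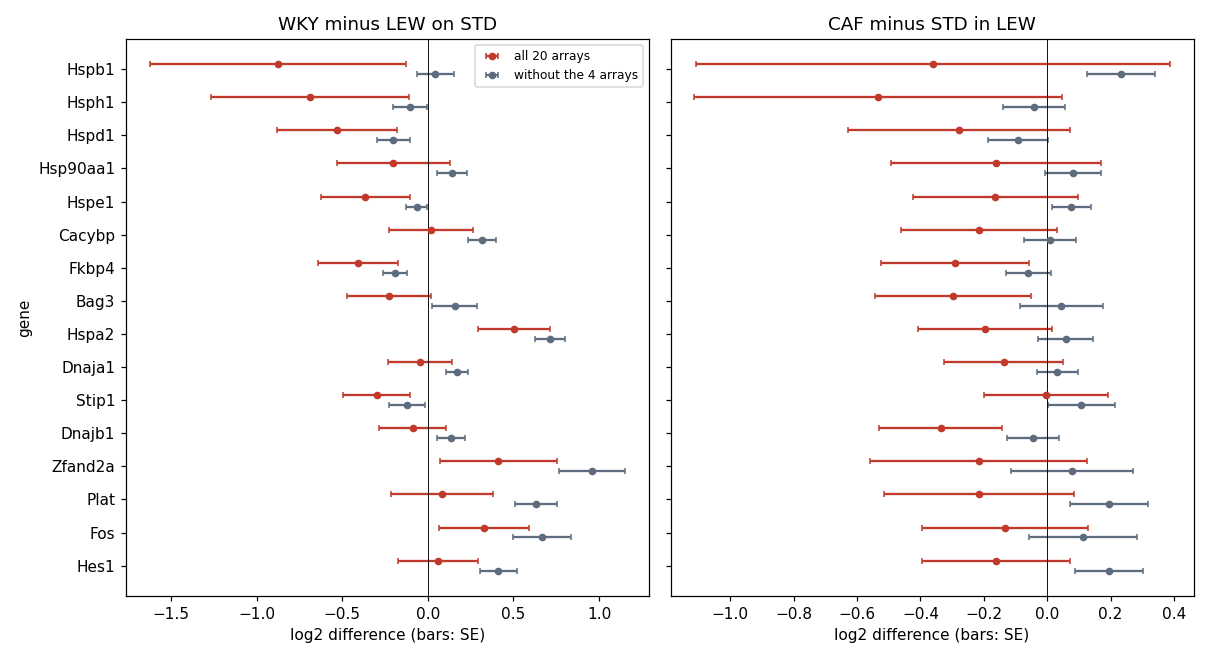
Log2 difference with its SE between WKY and LEW rats on STD and between CAF and STD in LEW rats, for the 12 heat shock genes and 4 further genes past the rule, with all 20 arrays (red) and without the 4 heat shock arrays (grey). The grey bars are shorter, and the strain difference of Hsph1 moves from -0.69 to -0.10 and that of Zfand2a from 0.41 to 0.96.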

How the data were processed

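The authors hybridised 1 Rat Gene 1.0 ST array per rat and deposited a table of log2 signal values, normalised between arrays, for 28826 probe sets (3.57 to 14.4). The methods name RMA and the submitters' notes MAS5, without a version, and which was used is not settled here. The deposited log2 values were used with no further normalisation and no filter, and groups came from the sample labels. The number of arrays limits the precision.

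All fits used limma (version 3.58.1, under R 4.3.3). For the 4 arrays, a least-squares fit held 1 mean per group and an indicator, with no p-value. Strain, diet and the slope on Hsph1 were tested with moderated statistics and Benjamini–Hochberg adjustment over all transcripts (adjusted p under 0.05). For strain and diet the residual degrees of freedom were 16 with 20 arrays and 12 with 16. The slope fit on 16 arrays had 11. The procedure was tested on simulated data.

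Of the probe sets, 15209 carried 1 symbol of the platform's annotation and 306 several, and 15178 of the 15209 were found in RefSeq. A gene was read from its probe set of the highest mean signal. In the start windows, the first window was used for genes with several (3251 of 27457), and none of the 12 heat shock genes had more than 1. Named were the heat shock genes past the rule, up to 4 members per list with the largest difference, the 15 largest rises and 10 largest falls with 1 symbol, and genes of the smallest slope p. The 4 arrays, the 24 lists and the tests were chosen with earlier results of these data known. Alternatives were centring, a filter on a mean under 6, a fold of 2, marker scores and the replicate number as covariates, and leaving out arrays.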

Additional observations from a re-analysis of the deposited data

Results flagged for a closer look

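Among the arrays outside the 4, single arrays were set against the rest of their group by Dixon's ratio, the gap to the nearest array over the range of the group, for 120 genes and list means in the 3 groups with 4 or 5 such arrays. The ratio passed its critical value in 22 of 360 comparisons, and chance gives about 1 in 20. LEW_CAF replicate 1 was high for Hsph1 (9.45 against 9.15 for the next, ratio 0.898) and for Fcer2 (ratio 0.84). Hsph1 is a gene by which the 4 arrays were chosen and Fcer2 was picked by the rule, so that both flags are descriptions. In LEW_CAF, replicate 3 was low for Hsf2 (0.849), and replicate 5 was high for the list of the integrated stress response (9.73 against 9.36, ratio 0.973) and low for the platelet list (0.858). In WKY_STD, replicate 4 was low for Adm (0.867), Hes1 (0.838) and the interferon list (0.873) and high for Slc5a3 (0.847), replicate 5 was low for Fosl1 (0.855) and high for P4ha1 (0.911), and replicate 3 was high for Gp9 (0.863) and the platelet list (0.843). In WKY_CAF, replicate 3 was low for Fosl1 (0.743), Hmox1 (0.737), Ngp (0.761), Ptgs2 (0.734) and the Nrf2 and metal (0.726), inflammatory (0.779) and B cell (0.77) lists, and replicate 1 was low for Gclc (0.711) and Ppbp (0.778).

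Some genes went in opposite directions on the heat shock arrays of different groups, with each such array outside the range of its own group, and these differences were not tested. Retnlg, a neutrophil gene, lay up to 1.67 above its group's other arrays in LEW_STD and LEW_CAF and at -1.19 in WKY_STD, a gap of 2.86, and the mean of the neutrophil list had a gap of 1.58 in the same direction. Gzmb, a granzyme, had 1.46 in LEW_CAF and -0.69 in WKY_STD (gap 2.15), and the NK cell list had a gap of 0.67. The gap was 1.48 for Rrm2, 0.69 for Xbp1 and 0.17 for the dendritic cell list (both LEW groups above, WKY_STD below), 1.23 for Ptgs2 (LEW_CAF above, WKY_STD below) and 0.58 for Rhag (WKY_STD above, LEW_CAF below).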

How the results depend on the processing

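The number of transcripts higher in the 4 heat shock arrays was 76 after median centring of the arrays and with the replicate block, 73 to 81 with a low-signal filter or marker covariates, 17 at a fold of 2, and 52 to 125 when an array was left out. The lower count was 0 when centred, 5 with the replicate block, 3 with either marker covariate, 0 at a fold of 2 and 1 to 17 when an array was left out. The number called for WKY against LEW on STD was 3384 with the replicate block and 2435 to 3414 when an array was left out, and the counts of slope and diet stayed at 0 under all alternatives run. The strain difference changed sign without the 4 arrays for Hspb1 (0.0435) and Hsp90aa1 (0.141), and for Hsp90aa1 with the indicator (0.0637). When an array was left out, that of Plat ran from -0.0837 to 0.42 (below 0 without LEW_STD replicate 1, 4 or 5), and that of Hsp90aa1 from -0.41 to 0.0704. The cause of these moves was not tested beyond the samples left out. Replicate numbers share only a number, since deviations of same-numbered arrays correlated at -0.18 to 0.43 (9 of 30 pairs over 0.1) and 5 of 20 arrays correlated best with their own number. Signal near the low end of the range hides changes.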
